A study of Mus musculus with 8 samples.

Results

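The mouse C57BL/6, a common inbred laboratory strain, was followed after a surgically made myocardial infarct. The left anterior descending (LAD) coronary artery, which feeds most of the left ventricle, had been tied off, and left ventricles were taken 3, 30 or 60 days later. The hearts for comparison came from untreated mice, not from mice with a sham operation, so effects of the operation itself and of the infarct cannot be told apart. All arrays with these labels were used: 4 of the 8 arrays of the series, chosen by strain alone, namely C57BL/6 untreated, day 3, day 30 and day 60. The other 4 arrays are of MRL/MpJ, another inbred strain, and entered the offset, the probe set filter and the choice of main probe sets; its untreated array is also given beside a few genes and, averaged with that of C57BL/6, as another reference. The mice were males of 2 to 4 months with no transgene or drug named in the labels. Each group had 1 array, and the labels do not say whether an array held RNA of 1 animal or of several. No test between days was therefore possible, no value below has a replicate, and every comparison is of arrays, not of conditions in general.

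Death of heart muscle after a coronary ligation is followed by an inflammatory phase, in which neutrophils and then macrophages clear the dead tissue. A phase of repair comes next, in which fibroblasts become active and lay down matrix that matures into a scar. The surviving muscle is remodelled over weeks and is known to return in part to a fetal pattern of gene expression, with more atrial natriuretic peptide and beta myosin heavy chain, and to lower its use of fatty acids. The arrays were of left ventricle tissue, in which scar and surviving muscle were not separated here. A shift in RNA per cell and a shift in the number of cells of a type therefore cannot be told apart for any gene below.

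Values are signals, a linear measure of brightness over a set of probes, and they are given throughout in the order untreated, day 3, day 30, day 60. Changes are log2 ratios of signals with an offset of 28.6 added, which compresses changes of dim genes, and a gene passed the limit used here at a 2-fold change, a log2 ratio of 1 or more in size. Where an untreated signal was itself below the offset, the size of the change rests on a dim reference. After the filter 8208 genes were left, of which 2730 had at least 2 kept probe sets and 5478 had 1. Probe sets of the same gene gave the only measure of spread. It holds disagreement between probe sets on the same arrays, not variation between animals or arrays. The pooled SD between probe sets in the log2 ratio to untreated was 0.39 on day 3, 0.62 on day 30 and 0.43 on day 60 (n = 2730 genes). Genes on which several probe sets met the limit were therefore preferred, and the ligated days share 1 untreated array, so a value that was off in that array shifts all 3 ratios alike.

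The C57BL/6 day 30 array stood apart from the others. Its log2 signals correlated with those of the other C57BL/6 arrays at r = 0.851 to 0.874 across genes, against 0.921 to 0.945 among the other 3, and its brightest probe set reached 75193, where theirs reached no more than 33202. Its ratio to untreated also depended on brightness: genes with a mean signal under 100 in the other C57BL/6 arrays had a median log2 ratio of 0.74, genes between 1000 and 5000 had medians of -0.31, and genes over 10000 had one of 0.24. With filter, offset and probe sets chosen on the 7 arrays without it, the first of these was 0.51, and after quantile normalization the group medians ran from -0.18 to 0.56. Medians for days 3 and 60 stayed between -0.10 and 0.11 at every brightness as deposited. Of all genes, 38.0% were brightest in the day 30 array, 24.2% in the untreated array, 17.7% on day 3 and 20% on day 60. Values of day 30 all rest on that array, so what days 3 and 60 show without it is stated beside them. With filter, offset and probe sets taken from the 7 other arrays, counts for those days were nearly as before, at 190 higher and 106 lower on day 3 and 292 and 163 on day 60, as an alternative chosen after the array had been seen to stand apart.

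**Figure D1:**
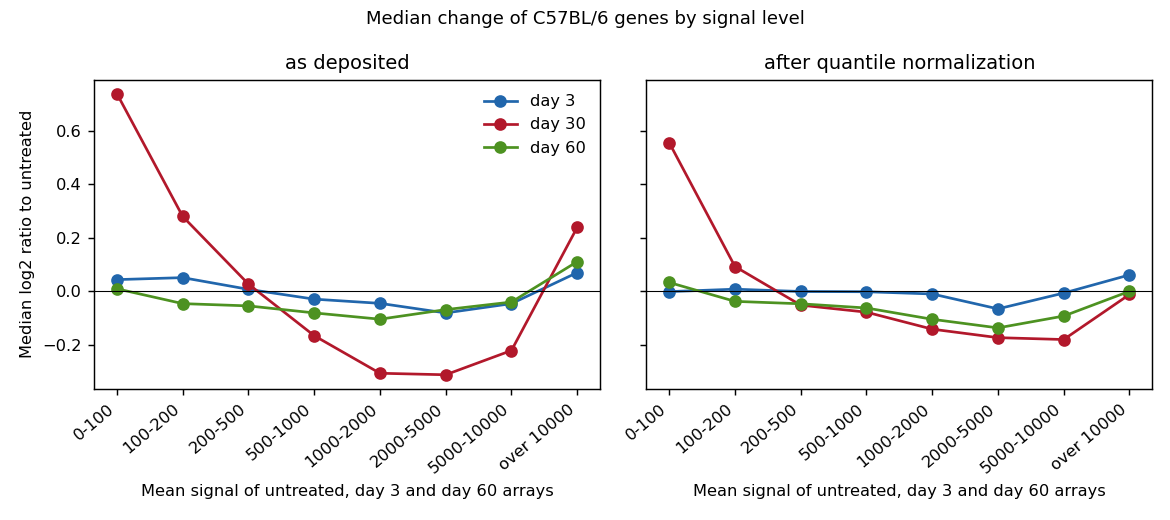
Median log2 ratio to the untreated C57BL/6 array (vertical axis) for genes grouped by their mean signal in the untreated, day 3 and day 60 arrays (horizontal axis), with signals as deposited (left) and after quantile normalization (right). Each point is the median of a group of 51 to 2996 genes. Days 3 and 60 run close to 0, while day 30 goes from 0.74 in the dimmest group to -0.31 in bright groups, and after quantile normalization from 0.56 to -0.18.

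The genes described differed from the untreated heart in several orders over time. Col1a1, Col1a2, Col3a1 and Eln, which encode fibrillar collagen chains and elastin, were highest on day 3 on their main probe sets. Comp, Thbs4, Postn and Sfrp2, genes of matrix assembly and wound repair, were higher in each array than in the one before. Nppa and Myh7, genes of the fetal heart programme, were highest on day 30 and still over 4-fold above untreated on day 60. Pdk4, a switch of fuel use, was lower in each array than in the one before, and Hspa1b, an inducible chaperone, was lower on each ligated day. Between days 3 and 60 alone, without the array that stood apart, Comp went from 342 to 2815, Thbs4 from 85.1 to 871 and Col1a1 from 3516 to 1713.

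Against the untreated array, 199 of the 8208 genes (2.42%) were at least 2-fold higher and 111 (1.35%) at least 2-fold lower on day 3. On day 30 these numbers were 653 (7.96%) and 572 (6.97%), and on day 60 298 (3.63%) and 174 (2.12%). These percentages are the background for each count of list members below, in which higher and lower always mean by 2-fold or more. The day 30 split moved with the scaling: quantile normalization gave 552 higher (6.73%) and 662 lower (8.07%), and median centring, which shifts the day 30 median by -0.14, gave 480 and 771. Differences of 4-fold or more were fewer, with 20 genes higher (0.244%) and 4 lower (0.0487%) on day 3, 66 (0.804%) and 45 (0.548%) on day 30, and 46 (0.56%) and 9 (0.11%) on day 60. Medians over all genes were 0.01, 0.06 and -0.05. The gene lists and the order in which they are described were drawn up with results of these data known.

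On day 3 the C57BL/6 ventricle had more signal for fibrillar collagens and other matrix genes than the untreated one. Among genes with several kept probe sets, 11 (0.403% of 2730) passed on every one in the upward direction and 7 (0.256%) in the downward direction. Of 43 genes called higher on their main probe set, 32 (74.4%) had the same sign on every probe set, against 10 of 21 (47.6%) called lower, a smaller share. The 10 genes named by the rule for higher genes were Col1a1, Col1a2, Eln, Col3a1, Nfatc4, Dkk3, Mmp2, Aebp1, Thbs2 and Fstl1. Of these, 8 are matrix proteins or act on the matrix or are secreted by matrix-forming cells; Nfatc4 encodes a calcium-regulated transcription factor and Dkk3 a secreted relative of the Dickkopf Wnt inhibitors.

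The collagens were brightest early. Col1a1, a chain of type I collagen, the main collagen of scar, had signals of 646, 3516, 2587 and 1713, and its other probe set had 170.5, 1601, 2111.5 and 780.3. Col1a2, the other chain of that collagen, had 936, 4936.5, 4079.7 and 2974, log2 ratios of 2.36, 2.09 and 1.64. Col3a1, a chain of the more elastic type III collagen, had 1858, 8957, 6863 and 5608. In all 3 the untreated array was lowest and the main probe set was lower on each day after day 3, yet day 60 was still more than 2-fold above untreated. The other probe sets gave another order in part: that of Col1a1 was highest on day 30, and that of Col3a1 had 145, 575, 237 and 288. Eln, which encodes elastin, had the same order at 324, 2208, 1405 and 1035, with log2 ratios of 2.67, 2.02 and 1.59, but its other probe set was back within 2-fold on day 60, with 191, 945.5, 482 and 235.

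Of 19 kept genes in the list of fibrillar and basement membrane collagens, 8 were at least 2-fold higher on day 3 and 1 lower, 9 were higher on day 30, and 8 on day 60. The list medians were log2 0.80, 0.53 and 0.71, and 10 of the 19 genes were brightest on day 3. The basement membrane chains stayed within 2-fold of untreated: Col4a1 had signals of 2836, 2863, 2149 and 2097 and Col4a2 1412, 1434.5, 1958 and 1518. Col5a2, a minor fibrillar chain, had 389.6, 1478, 1238 and 1308, while its other probe set passed only on day 30 with 104, 216, 358 and 207. Col11a1, another minor fibrillar chain with 1 kept probe set, was bright only on days 3 and 60 at 19.4, 151, 20.3 and 92.6. Col14a1, which coats fibrils, was about level over the ligated days at 202, 488, 489 and 561, although its other probe set had 88.1, 114, 295 and 194.

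Another set of matrix genes was brightest late. Comp, cartilage oligomeric matrix protein, which binds collagen fibrils, had signals of 94.3, 342, 1774 and 2815, log2 ratios of 1.59, 3.87 and 4.53. Thbs4, a thrombospondin made in loaded muscle and tendon, had 52.1, 85.1, 497 and 871 and did not pass 2-fold on day 3. Postn, periostin, a product of activated fibroblasts, had 519, 1659, 2397 and 3877. These 3 genes had 1 kept probe set each, and each was higher at every later array than at the one before. Fmod, the collagen-binding proteoglycan fibromodulin, had 6 probe sets, all past 2-fold on days 30 and 60, and the main one had 135, 243, 758 and 751, level between those days. On day 3 the Fmod log2 ratios of the 6 spread from -0.25 to 1.99, so its early value is not settled.

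**Figure D2:**
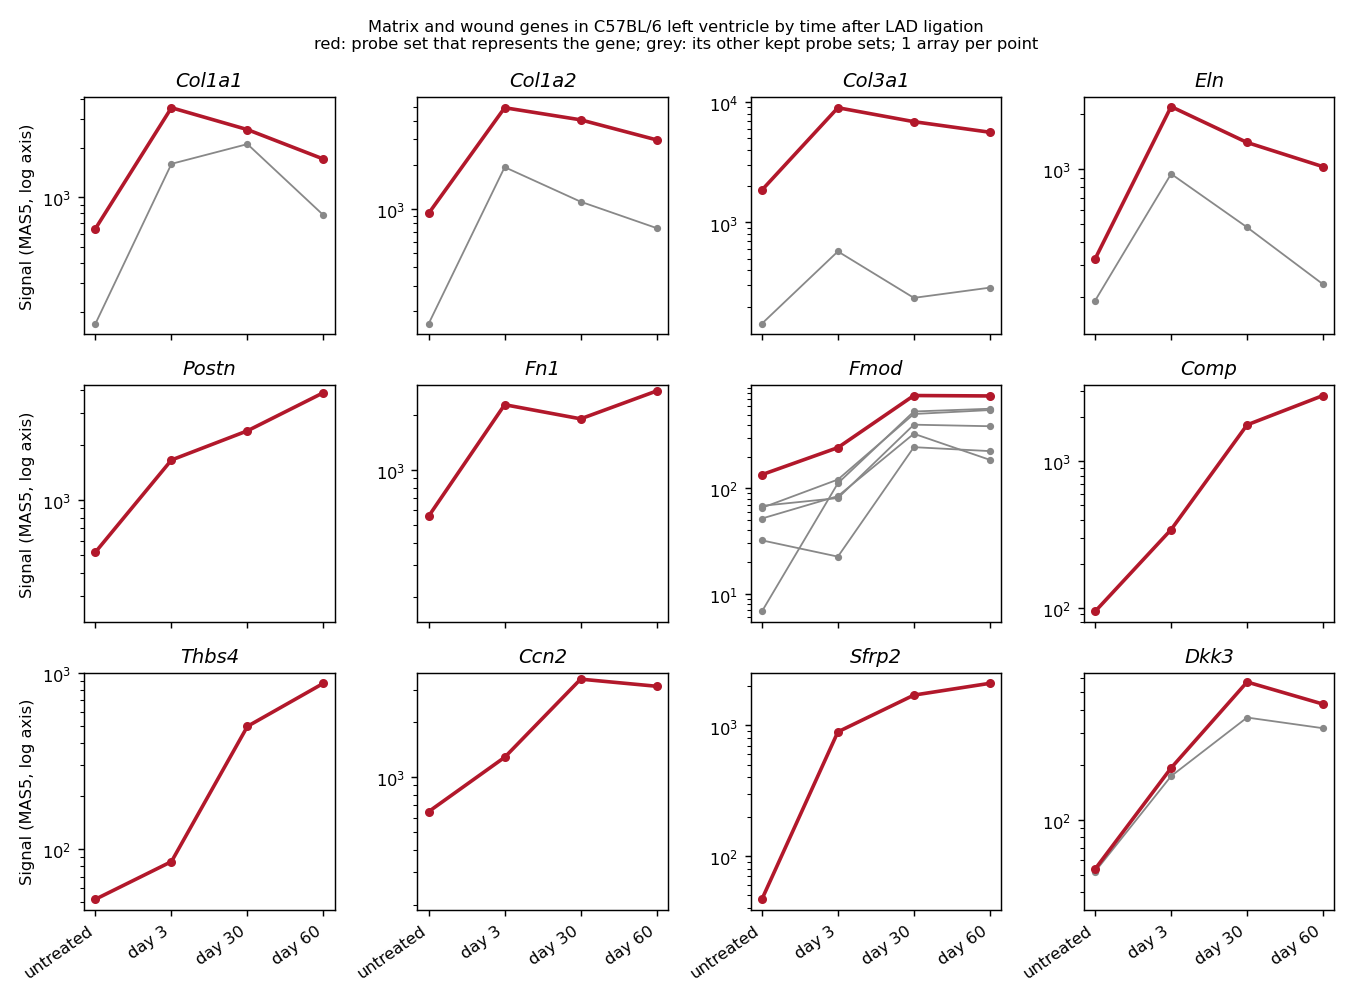
Signal (vertical log axis) of 12 matrix and wound genes in the untreated, day 3, day 30 and day 60 C57BL/6 arrays, with each line a kept probe set. The top row, Col1a1, Col1a2, Col3a1 and Eln, is highest on day 3 on the main probe set (Col1a1 3516), while Postn, Comp and Thbs4 are higher in each array than in the one before, up to 3877, 2815 and 871 on day 60.

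Among 18 kept proteoglycan and elastic fibre genes, 3, 7 and 12 were higher on days 3, 30 and 60 and 0 lower, with medians of 0.65, 0.90 and 1.24. Mfap4, a microfibril-associated glycoprotein, had signals of 12.7, 84.5, 502.5 and 447. Ltbp2, a latent TGF-beta binding protein found on elastic fibres, had 127, 174, 597 and 603. Bgn, the proteoglycan biglycan, had 2818.5, 3499, 7596 and 6931 on its main probe set and was past 2-fold on days 30 and 60 on all 3. Aspn, asporin, was past 2-fold on both probe sets only on day 60, where the main one had a log2 ratio of 1.39. Mfap2 went its own way with 141, 239, 72.7 and 353, lowest in the day 30 array.

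In the list of matricellular and wound proteins 17 genes were kept; 8 were higher and 1 lower on day 3, 11 higher on day 30 and 12 higher on day 60, with medians of 0.96, 1.33 and 1.25, and 10 of the 17 were brightest on day 60. Ccn2, connective tissue growth factor, had signals of 647, 1283, 3438 and 3143 and Ccn5, a family member that lacks one domain, had 117, 392, 783 and 799.6. Fn1, fibronectin, was up early and late at 558, 2276, 1904 and 2705. The day 3 exception was Tnfrsf12a, the receptor for TWEAK, with 1937, 764, 1515 and 1690.0 and agreement between both probe sets; it was back near the untreated signal by day 60. Lgals3, galectin-3, a product of macrophages and fibroblasts, had 66.8, 232, 525 and 436.

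Fibroblast genes stood higher on each ligated day. Of 18 kept markers, 6, 9 and 12 were higher on days 3, 30 and 60 and 0 lower, with medians of 0.72, 1.0 and 1.14, and several are also members of the collagen and proteoglycan lists. Vim, the intermediate filament vimentin, had signals of 2164, 5037, 6974 and 7061.5, and its 3 probe sets all passed 2-fold on days 30 and 60. Dpt, dermatopontin, had 995, 2686, 3118 and 3903. Fstl1, a secreted follistatin-like protein, had 387.5, 1032.5, 988 and 1786. Genes of contractile myofibroblasts did not stand out: Acta2, smooth muscle actin, had 1508, 1276, 1899.7 and 1618, and of 19 genes in that list 1, 2 and 1 were higher.

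Enzymes that cut or link matrix were mixed. Mmp2, a gelatinase of fibroblasts, had signals of 448, 1282, 1594 and 1421, although its other probe set passed only on day 3 with 733, 1691, 904 and 1045.5. Mmp8 and Mmp9, enzymes of neutrophils, stayed within 2-fold of untreated, Mmp9 at 223, 228.5, 322 and 216. Mmp23, a membrane-anchored family member, had 105, 258.5, 548 and 373, and on its other probe set, which did not pass on day 3, 10.3, 11.6, 215 and 113. Mmp3, stromelysin-1, was highest on day 60 at 105, 182, 251.5 and 504. Among the inhibitors Timp1 had 131, 349, 459.8 and 365, Timp3 had 707, 878, 2266 and 2476 and Timp4, the form most typical of heart, had 428, 401, 309 and 272. Of the 21 kept genes of this list 6, 8 and 6 were higher and 0, 0 and 1 lower. Of 16 genes that process or link collagen 1, 3 and 3 were higher and 0, 1 and 0 lower; Lox, lysyl oxidase, had 195, 509.9, 611 and 400.3 and Serpinh1, the collagen chaperone also known as HSP47, had 2449.8, 2342, 1130.3 and 1462, lowest on day 30, where its other probe set was level with 1010.2, 1012, 990.4 and 802.

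The genes lower on every probe set on day 3 were Ptgds, Hspa1b, Tnfrsf12a, Galnt10, Uba7, Ciapin1 and Jag2. Ptgds, a prostaglandin D synthase, had signals of 5217.5, 1975.5, 4573 and 5509 and its other probe set 2552.5, 756, 2252 and 2938; both were low only on day 3. Jag2, a Notch ligand, had 273.5, 112, 259 and 132 and Uba7, an enzyme that attaches ISG15, had 293, 112, 229 and 141. Galnt10 had main-probe signals of 75.7, 20.3, 133.5 and 171, but 169, 42.4, 269.8 and 44.3 on the other probe set, which differ on day 60. Ciapin1 had 749, 348, 110.0 and 403.

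In the day 30 array, 32 genes (1.17% of 2730) were higher and 26 (0.952%) lower than untreated on every kept probe set. The rule named Dkk3, Nfatc4, Fmod, Mmp23, Col1a2, Col1a1, Stim1, Dbp, Col5a2 and Serpinf1 as higher. Serpinf1, pigment epithelium-derived factor, had signals of 443, 643, 1294 and 1477.5 and 53.0, 77.3, 536 and 731. Dkk3 had 53.7, 192, 568 and 429.8 and Nfatc4 22.2, 192, 282 and 172, with their other probe sets past 2-fold on day 30 as well. Stim1, a sensor of calcium stores, passed only on day 30, on both probe sets, with 68.7, 156, 322 and 152 on the main one.

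The lower genes named for day 30 were Hspa1b, Ptdss2, Map3k4, Pkia, Rap2c, Gspt1, Psme4, Rnf128, Clpb and Scamp2. On the main probe set each was lowest in the day 30 array and nearer to untreated on days 3 and 60. Pkia, an inhibitor of protein kinase A, had 1319, 699, 291 and 781. Psme4, a proteasome activator, had 2161, 1484, 850.0 and 1584.5, and was lowest on day 30 on its 3 probe sets. Rap2c, a small GTPase, had 139, 131, 8.5 and 146, and Gspt1, a translation termination factor, had 341, 280.5, 94.8 and 290.4. The signals of Ptdss2, Map3k4, Rnf128, Clpb and Scamp2 on day 30 lay between 94.3 and 391 on their main probe sets. These low values are all in the array that stood apart, whose part in them was not tested.

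By day 60 the genes with the most probe set support were almost all higher ones. On every kept probe set 26 (0.952% of 2730) were higher and 3 (0.11%) lower. Of 73 genes called higher on the main probe set, 59 (80.8%) had the same sign on every probe set, the highest share of any day and direction. Named as higher were Dkk3, Dbp, Vim, Serpinf1, Col1a2, Car3, Mmp23, Rarres2, Nupr1 and Fmod. Rarres2, the adipokine and chemoattractant chemerin, had signals of 57.1, 205, 352.5 and 375. Nupr1, a small stress-responsive nuclear protein, had 50.1, 287, 375 and 287. Hspa1b, Ptp4a3 and Ttc7b were the 3 lower on every probe set. Ptp4a3, a tyrosine phosphatase, had 2526, 1669, 1500.3 and 1140.1 and on its other probe set, which was high on day 30, 173, 142, 326 and 56.6. Ttc7b had 442.5, 271, 208 and 204.

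Genes with 1 kept probe set that passed on at least 2 ligated days numbered 204 higher (3.72% of 5478) and 72 lower (1.31%). The first 5 higher were Sfrp2, Myh7, Comp, Mfap4 and Ecrg4. Sfrp2, a secreted Wnt modulator expressed by fibroblasts, had signals of 46.8, 894, 1708 and 2102, log2 ratios of 3.61, 4.53 and 4.82, the largest day 3 ratio of the 8208 genes. Ecrg4, a secreted peptide precursor, had 8.2, 93.1, 383 and 478. The untreated signals of Ecrg4 and Mfap4 were below the offset. The first 5 lower were Abca2, Med14, Lao1, Tarbp2 and Pdk4. Abca2, a lipid transporter, had 325, 41.5, 55.9 and 38.5, but the untreated MRL/MpJ array had 38.4, so the C57BL/6 untreated signal was the highest of these 5. Tarbp2, a partner of Dicer, had 249.6, 44.0, 29.5 and 101 with 44.6 in untreated MRL/MpJ. Med14 had 157, 14.2, 211 and 15.3 and Lao1 199, 26.1, 299 and 20.2, both below the offset on days 3 and 60 and not on day 30. With the mean of the untreated arrays of both strains as the reference, 127 of the 199 genes higher on day 3, 484 of the 653 on day 30 and 193 of the 298 on day 60 were still past 2-fold upward; of the lower ones these were 68 of 111, 464 of 572 and 98 of 174.

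**Figure D3:**
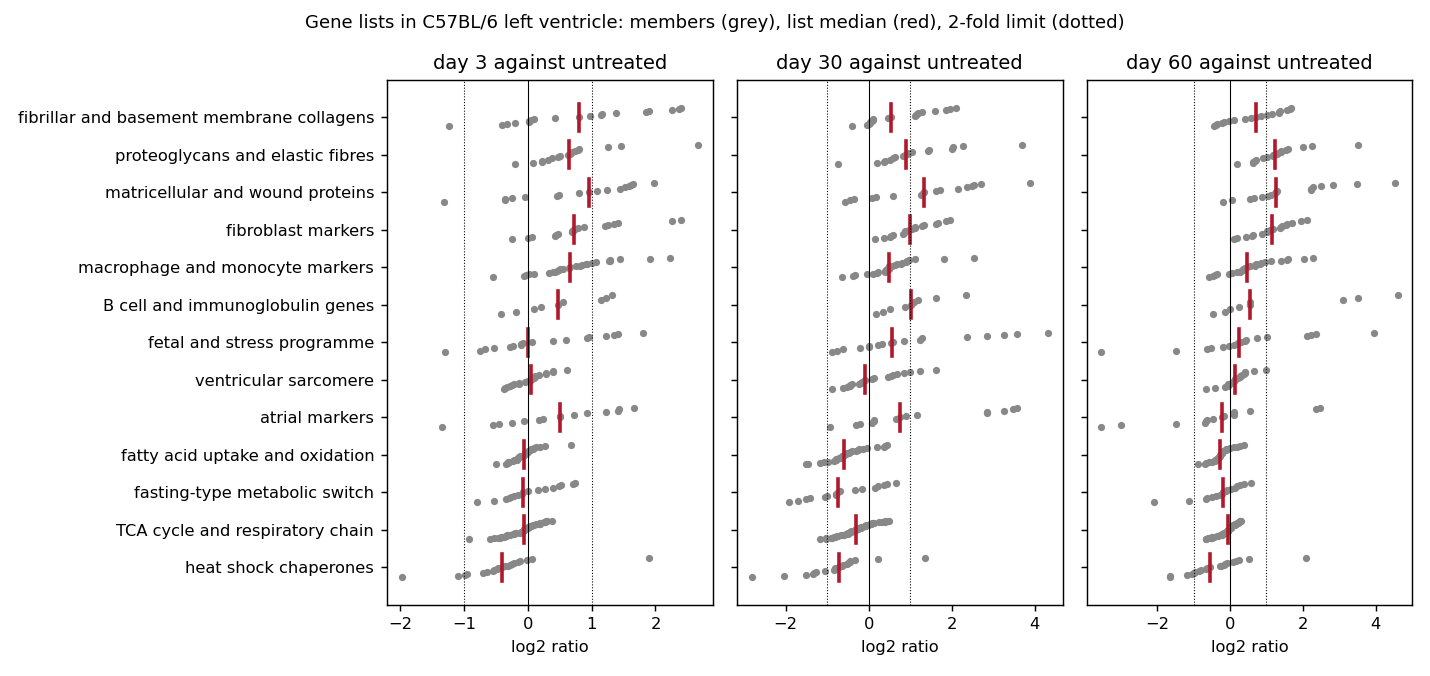
Log2 ratio to untreated (horizontal axis) on days 3, 30 and 60 for the members of 13 gene lists (rows); grey points are genes, red bars list medians and dotted lines the 2-fold limit. Matrix and fibroblast lists sit to the right on each day, with proteoglycan medians of 0.65, 0.90 and 1.24, while the fatty acid list median is -0.06, -0.60 and -0.26 and that of heat shock chaperones -0.40, -0.72 and -0.55.

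Macrophage genes stood higher from day 3 on, few of them by 2-fold. Of 27 kept markers, 8, 3 and 6 were higher on days 3, 30 and 60 and 0 lower, with medians of 0.66, 0.48 and 0.48, and 13 were brightest on day 3. Mpeg1, a pore-forming protein of macrophages, had signals of 69.4, 341, 109.5 and 260.2, and Gpnmb, a glycoprotein of lipid-loaded macrophages, had 12.2, 162, 28.5 and 138. Both were at their lowest ligated value on day 30. Cd68, a lysosomal marker, had 181, 340.2, 360.3 and 309 and Adgre1, which encodes F4/80, had 422, 783, 635 and 566, within 2-fold of untreated on each day. The summed signal of the 27 genes was 9652 in the untreated array, 15393 on day 3, 14348 on day 30 and 14564 on day 60.

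Neutrophil markers were near untreated on day 3. Of 9 kept genes 0, 1 and 0 were higher and 0, 1 and 1 lower on days 3, 30 and 60, and the day 3 median was 0.07; S100a8, a subunit of calprotectin, had signals of 125, 149.6, 78.0 and 172. Among 15 chemokines and cytokines 2, 6 and 2 were higher and 0 lower, with Ccl8, which draws in monocytes, at 325, 743, 1152 and 1053 and Ccl2 at 35.7, 109.6, 174.5 and 121. Tnf was bright only on day 30, at 84.4, 32.0, 362 and 28.3. Class II and antigen presentation genes were brightest on day 3 for 9 of 16, and 2, 0 and 0 were higher and 0, 1 and 1 lower. The higher ones were H2-Aa at 1393, 2857, 1750.2 and 1275.5 and H2-Eb1 at 596, 1430.3, 1089 and 848. Both main probe sets were lower in each array after day 3 than in the one before.

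Immunoglobulin genes had the highest day 60 ratios of the immune lists. Ighm, the mu heavy chain, had signals of 178, 484, 1021 and 4997 on the main probe set, a log2 ratio of 4.61 on day 60. Its 5 probe sets did not agree in size, since their day 60 ratios ran from 0.29 to 4.61. Jchain, which joins IgM and IgA polymers, had 48.0, 149.7, 134 and 629 and Iglv1, a lambda light chain segment, 5.1, 46.1, 75 and 356. Among B cell surface genes, Cd79a, a part of the B cell receptor, was higher on day 30 alone, at 116, 99.5, 299.6 and 144. Ms4a1, at 137, 162, 180.1 and 122, and Cd22, at 154, 166, 231 and 154, stayed within 2-fold of untreated on each day. Of the 9 kept genes of this list 3, 5 and 3 were higher, and on day 30 3 after quantile normalization.

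Acute-phase and complement genes were higher throughout for some members. Serpina3n, a protease inhibitor, had signals of 31.1, 237, 434 and 482.5, and Hp, haptoglobin, 13.5, 121, 119 and 139. C1ra, a protease of the classical pathway, had 104, 326, 463 and 489, and Serping1, its inhibitor, 903, 1950.5, 2799.9 and 3406. Complement had 9 kept genes, of which 3, 2 and 3 were higher, and the 5 acute-phase genes had 2 on each day. Interferon-stimulated genes had 3, 2 and 3 higher and 0, 1 and 0 lower of 16 and a median of 0.01 on day 3; with the mean of both strains' untreated arrays as reference that median was 0.64.

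Heart muscle genes of the fetal programme differed most from untreated on days 30 and 60, and not all in 1 direction. Nppa, atrial natriuretic peptide, had signals of 3455, 6605, 41056 and 17996, log2 ratios of 0.93, 3.56 and 2.37, and a day 30 ratio of 2.97 after quantile normalization. Myh7, beta myosin heavy chain, had 339, 1248, 7273 and 5679.5, log2 ratios of 1.80, 4.31 and 3.96. Acta1, skeletal actin, another gene of the programme, was lower on each ligated day, by 2-fold only on day 3, with 7377, 2977, 4809 and 4698.5. Nppb, B-type natriuretic peptide, had 7501, 4458, 10923 and 8563 and stayed within 2-fold. Of the 18 kept genes of the list 4, 7 and 5 were higher and 1, 0 and 2 lower. The list shares members with that of atrial markers, among them Nppa and Myl7, so their counts are not separate.

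Of 15 kept atrial markers 4, 6 and 2 were higher and 1, 0 and 3 lower on days 3, 30 and 60, with medians of 0.50, 0.76 and -0.21. The 2 higher on day 60 were Nppa and Dkk3, and the 3 lower were Myl4, Myl7 and Sln. Myl7, the atrial regulatory light chain, had signals of 442, 1078, 3372 and 11.9, and Sln, sarcolipin, the inhibitor of the calcium pump in atria, had 251, 858, 3078 and 6.7. Myl4, the atrial essential light chain, had 483, 1329.7, 4853 and 154, and its other probe set had 93.6, 136, 242 and 44.9. All 3 were highest in the day 30 array and lowest on day 60, where Myl7 and Sln were below the offset. The summed signal of the 15 markers was 13113, 17648, 66235 and 27103, of which Nppa gave 3455, 6605, 41056 and 17996. Untreated MRL/MpJ gave 532.5 for Myl7 and 235 for Sln. The part of atrial tissue in the pieces taken was not tested.

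**Figure D4:**
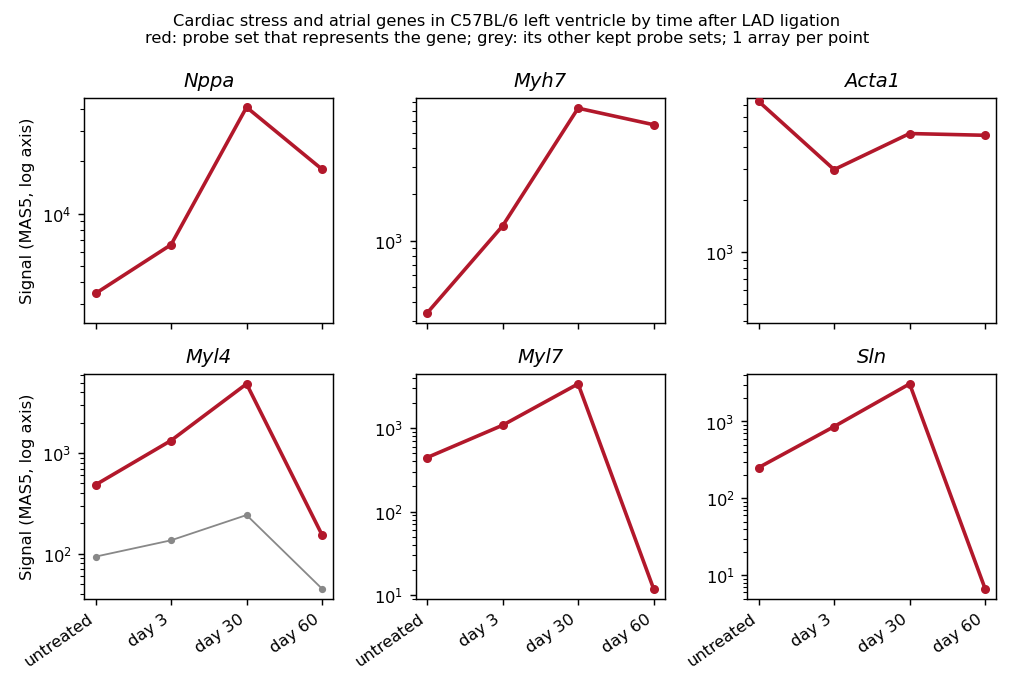
Signal (vertical log axis) of 6 cardiac genes in the untreated, day 3, day 30 and day 60 C57BL/6 arrays, red for the main probe set and grey for the other kept probe set of Myl4. Nppa and Myh7 stay high on day 60 at 17996 and 5680, Acta1 is highest untreated at 7377, and Myl4, Myl7 and Sln are highest on day 30 and at 154, 11.9 and 6.7 on day 60.

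The ventricular sarcomere list held close to untreated. Of 21 kept genes, 0, 2 and 0 passed 2-fold, with medians of 0.05, -0.10 and 0.13. The 2 on day 30 were Myl2, ventricular regulatory light chain, at 24551, 27681.5, 75193 and 31041, and Actc1, cardiac actin, at 20040.3, 26221, 47012 and 26532.5. Neither passed after quantile normalization, with log2 ratios of 0.30 and 0.37 instead of 1.61 and 1.23. Myh6, alpha myosin heavy chain, had 13965, 18322, 22530.5 and 18315, but its other probe set was lowest on day 30 with 2464, 2440.4, 908 and 2179.9, so its day 30 direction is not settled. High signals of Myl2 and of Myl3, at 25881, 26709.6, 37853 and 28513, in every array go with the label of ventricular tissue. Tnni3, which does not separate ventricle from atrium, had 17133, 17739, 15771 and 15659.6.

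Calcium handling and conduction genes had medians below 0 on days 30 and 60. Of 16 calcium genes 1, 2 and 0 were higher and 0, 2 and 1 lower, with medians of -0.05, -0.20 and -0.38; the higher ones were Sln and, on day 30, Atp2a2, the calcium pump, at 22772, 26219, 48349.6 and 24592 (log2 ratio of 1.09 as deposited and 0.16 after quantile normalization). The 3 other Atp2a2 probe sets had day 30 ratios from -1.56 to 0.30. Trdn, triadin of the release complex, had 1571, 1248, 576 and 1098, but of its 5 probe sets the others did not pass. Calr, calreticulin, had 3963.5, 3822, 1638 and 2164 and was lower on day 30 on its 3 probe sets. After quantile normalization 1 calcium gene was higher and 4 were lower on day 30. Of 17 ion channel genes 0 were higher and 0, 3 and 0 lower; Kcnip2, a subunit of the transient outward channel, had 381, 378, 145 and 231 but a day 30 ratio of 0.56 on its other probe set, and Abcc9, a subunit of the ATP-sensitive potassium channel, had 1019, 719, 399.9 and 580.2. Gja1, connexin 43, had 3646.5, 4581, 1767 and 4024 on its main probe set, while its 6 probe sets spread from -1.46 to 0.09 on day 30.

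Fatty acid genes were lowest in the day 30 array. Of 29 kept genes, 0 passed 2-fold on days 3 and 60 and 4 were lower on day 30, with medians of -0.06, -0.60 and -0.26. On each of days 30 and 60, 25 of 29 were below untreated, where medians over all genes were 0.06 and -0.05. Etfa, a subunit of the flavoprotein that takes electrons from acyl-CoA dehydrogenases, had signals of 5649.7, 5434, 2042 and 4715, and Slc25a20, the carnitine-acylcarnitine carrier, had 1508, 1354, 511 and 1285, with 884, 598, 558 and 600.3 on its other probe set. Cpt2, a carnitine palmitoyltransferase, had 1964, 1385, 914 and 1211, while its other probe set had a day 30 ratio of 0.46. Over all genes, day 30 medians were -0.31 at mean signals between 1000 and 5000, -0.22 between 5000 and 10000 and 0.24 over 10000. After quantile normalization the list's median was -0.52.

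Among genes switched on by fasting, Pdk4, the kinase that shuts pyruvate dehydrogenase, was lower in each array than in the one before, at 3153, 1799, 806 and 716, log2 ratios of -0.80, -1.93 and -2.09. Ddit4, an inhibitor of mTOR signalling, had 1308, 1723, 382 and 582, and Plin5, a lipid droplet coat protein, 967, 915, 345 and 605. Of the 17 kept genes 0, 6 and 2 were lower and 0 higher. Of 49 TCA cycle and respiratory chain genes 0, 3 and 0 were lower, with medians of -0.06, -0.30 and -0.04. After quantile normalization 1 was lower on day 30 and the median was -0.25. As deposited, day 30 medians over all genes were -0.31 at mean signals between 1000 and 5000, -0.22 between 5000 and 10000 and 0.24 over 10000. Among 19 glycolysis genes 1, 1 and 0 were lower; Ldhb, the heart form of lactate dehydrogenase, had 12862.5, 9541, 6547 and 6519.9, just within 2-fold. Hypoxia-induced genes had medians of 0.09, -0.11 and 0.09 over 17 genes, with 0 higher and 0, 3 and 2 lower, among them Vegfa on day 60 at 1152, 685, 801 and 491. Of 20 antioxidant genes 1 passed, Cat, catalase, with 1186, 694, 301 and 832, and its other probe set had 461, 578, 348 and 637.

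Most heat shock chaperones stood below untreated on the ligated days. The inducible chaperones refold damaged proteins, and heat shock factor switches them on through heat shock elements, inverted repeats of the letters GAA. The 250 bases before the annotated start of 3 chaperone genes are printed because these genes were lower by 2-fold or more on at least 1 day and hold the letters GAANNTTC, an inverted pair of such repeats that reads alike on both strands. The bases come from RefSeq on GRCm38.p6, are written 5′ to 3′ on the gene's strand and carry that match in capitals. They lie at chr17:34972157-34972406 (minus strand) for Hspa1a, chr17:34959239-34959488 (minus strand) for Hspa1b and chr1:55087898-55088147 (plus strand) for Hspe1.
Hspa1a: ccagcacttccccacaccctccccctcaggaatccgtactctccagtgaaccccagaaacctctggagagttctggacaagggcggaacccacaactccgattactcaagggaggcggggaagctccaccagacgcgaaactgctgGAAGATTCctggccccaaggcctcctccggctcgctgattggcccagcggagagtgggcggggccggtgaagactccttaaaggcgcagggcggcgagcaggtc
Hspa1b: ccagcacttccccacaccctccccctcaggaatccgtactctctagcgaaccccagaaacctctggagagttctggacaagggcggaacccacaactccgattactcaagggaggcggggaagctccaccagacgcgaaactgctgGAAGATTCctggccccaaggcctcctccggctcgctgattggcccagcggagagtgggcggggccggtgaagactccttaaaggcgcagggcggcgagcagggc
Hspe1: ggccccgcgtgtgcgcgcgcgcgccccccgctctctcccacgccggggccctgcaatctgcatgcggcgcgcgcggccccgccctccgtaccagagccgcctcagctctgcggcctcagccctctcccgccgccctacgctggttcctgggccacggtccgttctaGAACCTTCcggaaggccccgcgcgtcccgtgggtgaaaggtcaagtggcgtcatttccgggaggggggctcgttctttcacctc
The match began 104 bases before the start of Hspa1a and Hspa1b and 84 bases before that of Hspe1. The first pair of windows is identical at 247 of 250 bases. Of 16 list genes with a window in the table, 6 (37.5%) held the letters, namely Hspa1a, Hspa1b, Hspb1, Dnaja1, Hspd1 and Hspe1, against 409 of 6637 kept genes (6.16%) and 2199 of all 32851 windows (6.69%). By the first match of each window, those 6 genes hold 5 distinct sites, since the windows of Hspd1 and Hspe1 overlap and share 1. The Hspb1 window holds 2 matches, of which only the first entered that count. With the shared site, and with Hspa1a and Hspa1b as near copies, the genes are not independent counts. Hsph1, Bag3 and Dnajb1, also lower by 2-fold or more on at least 1 day, held no match in their windows. Hspb1, Dnaja1 and Hspd1 held the letters and stayed within 2-fold of untreated on their main probe sets. Whether the letters go with lower signals was not tested. A match is no shown binding site.

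Hspa1b, an inducible HSP70, had signals of 773, 175, 84.8 and 226, log2 ratios of -1.98, -2.82 and -1.65. Its other probe sets had 353, 131, 42.1 and 82.6 and 518.5, 121, 86.0 and 160.5, and the 3 were past 2-fold on each ligated day. Hspa1a, its near-identical neighbour, had 323, 135, 140.4 and 83.0; probes may not separate the pair. In untreated MRL/MpJ the signals were 1894 and 770.5, above every ligated C57BL/6 array. Hsph1, an HSP110 cochaperone, had 730.2, 357, 236 and 338, and Bag3, another partner of HSP70, 2134, 1359.9, 838 and 1067. Hspe1, the mitochondrial cochaperonin, had 2055, 1415, 477 and 1396 and on its other probe set 454, 430.5, 248.5 and 403.

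Of 21 kept chaperone genes 2, 7 and 4 were at least 2-fold lower on days 3, 30 and 60. On each of these days 1, Hspa2, was higher, at 20.4, 154, 97.3 and 179. The untreated Hspa2 signal of 20.4 was below the offset, so these ratios rest on a dim reference. Untreated MRL/MpJ had 160.9 for Hspa2, within the range of the ligated arrays. Beside the background of 1.35%, 6.97% and 2.12% of genes lower, medians of the list were -0.40, -0.72 and -0.55, and 15 of 21 were brightest in the untreated array. Below untreated were 19, 19 and 16 of the 21, where medians over all genes were 0.01, 0.06 and -0.05. Dnajb1, an HSP40, had 643, 317, 251 and 266, but its other probe set had 404, 438, 309.7 and 228 and did not pass on any day.

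**Figure D5:**
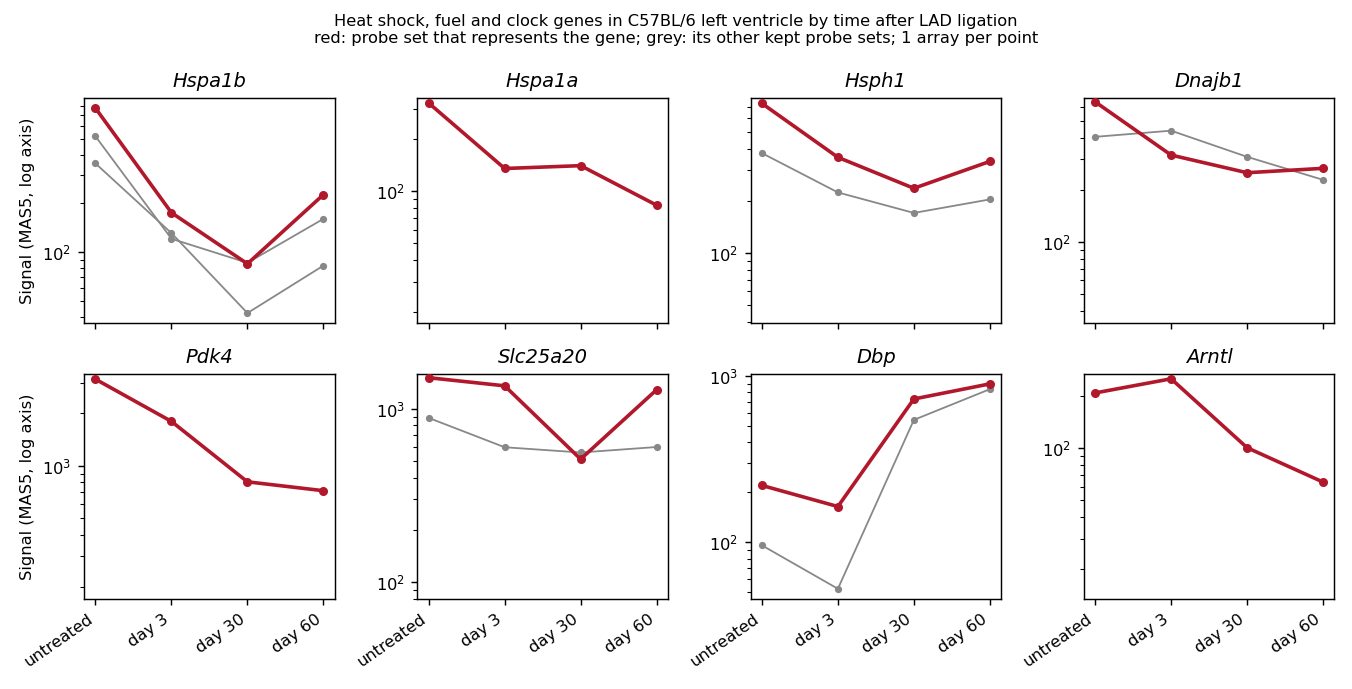
Signal (vertical log axis) of 8 heat shock, fuel and clock genes in the untreated, day 3, day 30 and day 60 C57BL/6 arrays; red lines are the main probe sets and grey lines the other kept ones. Hspa1b is highest untreated at 773 on its main probe set, Pdk4 is lower in each array than in the one before, from 3153 to 716, and on day 60 Dbp is at 899 and Arntl at 63.7.

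Clock genes differed between arrays. Dbp, a transcription factor with a strong daily cycle, had signals of 220.1, 164, 729 and 899 and on its other probe set 96.0, 52.6, 546 and 835, past 2-fold on both on days 30 and 60. Arntl, which drives Dbp in the clock and peaks at another time of day, had 208, 251, 101 and 63.7. Per2, another clock gene, had 94.3, 56.9, 224.5 and 116, and Clock, the partner of Arntl, was near 0 in the day 30 array only, at 125, 98.0, 4.9 and 142. Of 15 kept clock genes 0, 2 and 1 were higher and 0, 1 and 1 lower. On day 60, where the median over all genes was -0.05, 14 of 15 were above untreated. The hour at which hearts were taken is not in the labels, so hour and day after ligation cannot be told apart.

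Immediate early genes, which answer quickly to stimuli, had no common order. Egr1, a zinc finger factor, had signals of 135, 206, 516 and 999, higher in each array than in the one before. Ier3 had 297, 315, 733 and 957, Egr3 was bright on day 30 alone at 139.9, 158, 509 and 182, and Fos was low there at 299, 296, 123 and 429.8. Of 22 genes 1, 5 and 3 were higher and 0, 1 and 0 lower.

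Secreted Wnt modulators were led by Sfrp2 and Dkk3, described above. Sfrp1 had signals of 143, 539.6, 658 and 301 on its main probe set and was past 2-fold on day 60 on its 3 other probe sets, where the main one was just short at 0.94. Frzb, another secreted decoy of Wnt, had 96.7, 131, 261 and 335. Sfrp5 was lowest on day 60 at 95.3, 149, 206 and 23.4. Of 12 kept genes of this list 3, 6 and 3 were higher and 0, 0 and 1 lower, while Axin2, a target of the pathway, had 114, 106, 156 and 121, within 2-fold on each day.

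In the TGF-beta and BMP pathway the ligands parted. Tgfb1 had signals of 436.5, 298, 326 and 215.5, Tgfb2 80.3, 102, 183 and 246 and Tgfb3 212, 333, 499 and 512, so the last pair was higher late and the first was lowest on day 60. Bmp4 had 110.2, 107, 252.5 and 288. Of the inhibitors and targets, Id2 had 43.7, 64.4, 205.5 and 132 and Bambi, a decoy receptor, 162, 74.4, 66.9 and 129. Of 27 kept genes 1, 5 and 5 were higher and 0 lower. Among 10 genes of the IGF system Igfbp6 had 193, 315, 589 and 651 and Igfbp4, with 6 probe sets all above untreated on each day, 1420.4, 2987, 2619.9 and 2879; 1, 1 and 2 passed.

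Markers of other cell types were read for the make-up of the pieces. Endothelial genes had medians of -0.01, -0.33 and -0.06 over 23 genes, with 0, 1 and 2 higher and 0, 2 and 2 lower; Tie1, an endothelial receptor, had signals of 412, 279, 113 and 244 and Plvap, a protein of fenestrae, 45.8, 56.1, 234 and 172. Of 15 fat cell genes 2, 4 and 4 were higher and 0 lower, with medians of 0.10, 0.80 and 0.26, and 6 were highest on day 60. Among these, Adipoq, adiponectin, had 10.5, 63.5, 49.2 and 347. Car3, carbonic anhydrase 3, had 85.2, 253, 428 and 1130.4, and Scd1, a desaturase, 312, 456, 919 and 1708. The list did not move as a whole: 5 of the 15 were below untreated on day 60, among them Dgat2 at 3950, 3205, 2059 and 2224. Of the fast skeletal muscle genes 3 of 7 passed on days 30 and 60, namely Tnnt3 at 36.1, 48.4, 146 and 217, Mylpf at 34.9, 45.0, 127 and 210.1 and Atp2a1 at 173, 297, 497 and 583, and 1, Myl1, was lower on day 3. The part of fat, blood-borne or other tissue in the late values was not tested.

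Short lists gave little. Of 3 T and NK cell genes 0 passed on any day. Of 4 mast cell genes 1, Tpsab1, was lower on day 30. Cpa3, carboxypeptidase A3, passed on days 3 and 60 at 32.8, 153, 43.4 and 116, and untreated MRL/MpJ had 111.5. Of 3 epicardial genes, Upk3b, at 130.3, 270.5, 413.5 and 194, and Krt18, at 102, 103, 283 and 60.3, passed on day 30. Red cell, nerve and thymus lists, with 4, 6 and 3 kept genes, had 0, 1 and 0 members higher and 0, 0 and 1 lower on day 60. Of 14 proliferation genes 0, 2 and 1 were higher, Cdk1, the mitotic kinase, at 42.8, 90.5, 211 and 158 on both of those days. Housekeeping genes were not level: Eef1a1, a translation elongation factor, had 6346, 8971, 13917 and 13596, and medians of 13 such genes were 0.17, 0.34 and 0.27.

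From day 3 to day 30, 463 genes (5.64%) were at least 2-fold higher and 487 (5.93%) lower; median centring, with a shift of -0.11, gave 328 and 602. On every kept probe set 8 (0.293%) were higher and 14 (0.513%) lower. The 8 were Dbp, Galnt10, Fmod, Ptgds, Mbp, Cyp2b10, Zbtb16 and Mmp23. Zbtb16, a transcription factor induced by glucocorticoids, had signals of 328, 184, 415 and 271, and Mbp, myelin basic protein, 129.9, 75.2, 261 and 102. The first 8 lower were Clpb, Gspt1, Phf3, Efcab2, Tfrc, Nnt, Map3k4 and Hsdl2. Tfrc, the transferrin receptor, had 1165, 1317, 528 and 666, and Nnt, the mitochondrial transhydrogenase, 3039.8, 4863, 2151 and 2531. Nnt was bright on day 3 and within 2-fold of untreated on each day, while Gspt1, Map3k4, Clpb and Hsdl2 were low on day 30 alone.

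From day 30 to day 60, 477 genes (5.81%) were at least 2-fold higher and 632 (7.7%) lower. Other scalings turned that split, with 600 higher (7.31%) and 486 lower (5.92%) after quantile normalization and 676 and 415 after median centring, a shift of 0.16. On every kept probe set 17 (0.623%) were higher and 20 (0.733%) lower. Named as higher were Pitpnb, Rap2c, Parva, Syk, Gspt1, Fam20b, Stk17b and Efcab2. Pitpnb, a lipid transfer protein, had signals of 128.5, 52.0, 54.2 and 331; Parva, a focal adhesion protein, had 194, 104, 40.9 and 156 and Syk, a kinase of blood cells, 129.9, 208.5, 66.1 and 221.5. On their main probe sets all but Pitpnb were within 2-fold of untreated on day 60. Named as lower were Myl4, Tcof1, Gmeb1, Slc19a1, Cyp2b10, Fancc, Inpp5d and Crhr1, and apart from Myl4 their main-probe signals on day 30 lay between 238 and 685 and were the highest of the 4 arrays.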

How the data were processed

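Gene expression in left ventricles was measured on 8 Affymetrix arrays, of which the 4 of C57BL/6 carry the report. Per the labels, total RNA was made into biotin-labelled cRNA. The deposited values are linear signal intensities per probe set, made by the authors with MAS5, per the submitters' processing notes; they scale each array to about the same trimmed mean, which ranged from 247.2 to 248.4. Nothing was rescaled for the main values. Before log2 was taken, 28.6 was added to every signal; 20% of the table's values lie below it.

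Of 22626 probe sets, 20380 had 1 gene symbol, 691 several and 1555 none in the platform annotation. Probe sets that reached 121, the median signal of the table, on 2 or more arrays of the 8 were kept. The kept one brightest on average over the arrays (log2 scale) stood for its gene as the main probe set. The limit was 2-fold. For days against untreated the text names up to 10 genes per direction that passed on every kept probe set, ranked by their smallest change, up to 8 between ligated days, and 5 with 1 probe set that passed on 2 or more days. From each list it names the members with the largest changes and others that went apart from them, some picked after their values were seen. The members, gene lists and rules were chosen with earlier results of these data known. With 1 array a group no test was made, and array depth has no count, so the number of arrays limits precision.

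Alternatives were offsets, filters, median centring, quantile normalization, other rules for probe sets and the mean of both strains' untreated arrays as reference. The log2 ratio and the 2-fold count were tested on simulated data, with less noise than the spread between probe sets. The filter, the choice of probe sets, the scalings, the lists and the promoter search were not tested in this way. Python 3.11.15, numpy 2.4.6, pandas 2.3.3, scipy 1.17.1 and matplotlib 3.10.9 were used. The build behind the arrays' probe sets is not given in the sources used here; promoter windows are RefSeq's on GRCm38.p6.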

Additional observations from a re-analysis of the deposited data

Results flagged for a closer look

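A few genes stood well above untreated in one ligated array and well below it in another; each difference rests on single arrays and was not tested. Myl4 had a log2 ratio of 3.25 on day 30 and -1.49 on day 60. Myl7 had 2.85 and -3.54, and Sln had 3.47 and -2.99 on the same days. These 3 are the atrial light chains and sarcolipin, and the signals of all of them were highest in the array that stood apart. Col12a1, a fibril-associated collagen, had 1.27 on day 30 and -1.23 on day 3.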

How the results depend on the processing

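No paired analysis was possible because each group had 1 array and no replicate number links the groups. None of the list medians and named genes past the limit turned its sign under the alternatives tried. Over all called genes a few did, up to 6 of the 477 higher from day 30 to day 60 with the mean over probe sets. Counts of genes past 2-fold depended on the offset and on the filter. With no offset and a floor of 10, day 3 gave 307 higher and 187 lower, and day 60 gave 315 lower. With an offset of 100 they were 71 and 30 on day 3, 297 and 268 on day 30, 146 and 43 on day 60, 187 and 195 from day 3 to day 30, and 182 and 229 from day 30 to day 60. With no filter they were 449 and 298 on day 3, 1289 higher on day 30, 526 and 428 on day 60, 1054 and 757 from day 3 to day 30, and 718 and 1308 from day 30 to day 60. A filter on the C57BL/6 arrays alone gave 741 higher from day 3 to day 30, and median centring 415 lower from day 30 to day 60. Among list medians and single named genes, the values that moved by more than the SD between probe sets numbered 33 with the offset of 100, 27 without an offset, 27 with the mean of both untreated arrays as reference, 10 with the mean over probe sets, 5 without a filter, 3 with the C57BL/6 filter and 2 with choices made on the 7 other arrays. The offset and filter act through dim genes by construction. Median centring moved every ratio from day 30 to day 60 by the same 0.16. Why values moved with the mean untreated reference, the mean over probe sets or the choices made on the 7 other arrays was not tested. Arrays give no replicate spread here, and dim signals near the offset carry the least information.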
